A study of Mus musculus with 2 samples.

Results

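Krt14 Slurp1 mesothelial cells of the infarcted mouse heart are described here: 808 cells of the 22774 cell barcodes in the series, 307 in the GFPhi library and 501 in the GFPlo library. They were chosen by their own transcripts. A cell entered with at least 300 genes, at least 500 unique molecular identifiers (UMIs) and at most 20% mitochondrial UMIs, a filter that 22084 cells passed. It then needed at least 3 of the 8 mesothelial markers Msln, Upk3b, Upk1b, Lrrn4, Krt19, Krt8, Wt1 and Muc16, fewer than 30 UMIs of C1qa, C1qb and C1qc per 10000, and fewer than 3 UMIs of the cycling genes Mki67, Top2a and Birc5. The 1735 cells that met this (436 of GFPhi and 1299 of GFPlo) are the non-cycling mesothelial cells. Each had a score S from Slurp1, Krt14 and Msln and a score W from Pnoc, Enpp2 and Wnt4, both the log of the summed UMIs per 10000, standardised over these cells. Members had S above W and S above 0. The mesothelial cells with W above S and W above 0 (79 of GFPhi and 574 of GFPlo) are called Pnoc Enpp2 Wnt4 cells, and 50 cells of GFPhi and 224 of GFPlo were in neither set. Every comparison between members and other cells below therefore describes what the choice separated, and it carries no test.

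The mesothelium is the flattened epithelium that lines the body cavities and covers the organs in them, and on the heart it forms the outer face of the epicardium. Its cells hold simple keratins, uroplakins and mesothelin, carry a glycocalyx and secrete lubricating and antimicrobial proteins. After infarction, epicardial cells are known to respond with growth factors and matrix, and some take on features of mesenchymal cells. Msln encodes mesothelin, a surface protein that binds the mucin encoded by Muc16. Krt14 encodes a type I keratin best known from the basal layer of skin, and Slurp1 encodes a small secreted protein of the Ly6 and uPAR family that acts on nicotinic acetylcholine receptors.

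Both libraries were made from non-cardiomyocytes of the infarcted region of p16-2A-CreER;R26-mTmG mice after surgery for myocardial infarction (MI), in which Cre was expressed with p16 and, once tamoxifen was given, switched a cell and its progeny to membrane GFP. Tamoxifen went in by gavage on day 5 after MI, the tissue was taken on day 7, and sorting gave GFPhi and GFPlo cells, which other label fields call GFP-positive and GFP-negative. Every animal was thus infarcted, given tamoxifen and carried both alleles, and neither the age of the mice nor their number per library is stated in the labels. Each fraction gave 1 library, so differences between GFPhi and GFPlo have no replicates and no test. Intervals in parentheses are exact, at 95%, and cover nothing but counting error.

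The libraries differed in what surrounded the members. GFPhi had 91343549 UMIs and GFPlo 104855204 UMIs. Of the kept cells, 7642 of 10125 in GFPhi and 55 of 11959 in GFPlo had at least 30 UMIs of the macrophage C1q genes per 10000 and are called C1q-high cells, while 465 and 8445 cells carried at least 3 fibroblast markers with fewer than 3 mesothelial ones. Members were also deeper in GFPhi, with a median of 27586 UMIs and 5045 genes against 14507 UMIs and 3711 genes in GFPlo, at mitochondrial shares of 1.96% and 2.07%. In all, 94 barcodes occurred in both libraries, among them 3 of the GFPhi members and 3 of the GFPlo members, and no barcode was a member in both. Doublets were not removed, and leaving out possible ones is among the alternatives.

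The mesothelial label was checked on further genes, as counts per 1000000 UMIs (CPM), summed over members. Gpm6a, Bnc1 and Rspo1, which mark mesothelium and were not in the rule, stood at 548, 83.5 and 249 CPM in GFPhi and at 499.5, 68.4 and 253 CPM in GFPlo. They are examples from a list of 24 mesothelial genes beyond the rule, of which 23 were measured. Podxl of that list was lower in members than in Pnoc Enpp2 Wnt4 cells. Levels of these examples in other cell types are not given, so they do not settle the label by themselves. All 8 markers of the rule, of which 3 were enough, were present in the sums of both libraries, from 206 CPM of Wt1, a transcription factor of the epicardium, to 2209 CPM of Msln in GFPhi, and from 216 to 1622 CPM in GFPlo. Of 7 keratinocyte genes, Krt10, a keratin of differentiated epidermis, stood at 22.3 CPM in GFPhi and 21.4 CPM in GFPlo, nearly the whole of their summed 24.5 and 23.9 CPM. Krt5, the usual partner of Krt14 in skin, had no UMI in either library, Krt15 had 0.465 and 0.670 CPM, and Trp63 1.39 and 1.47 CPM. A count of 0 allows up to 3 UMIs. The counts hold no position in the tissue, so the place of these cells on the surface was not measured. Markers of other cell types were counted as well. The 14 macrophage markers summed to 1066 CPM in GFPhi and 323 CPM in GFPlo, where 5 of them were at 0, the 10 fibroblast markers to 7114 and 8216 CPM, mostly Dcn and Col1a1, the 8 endothelial markers to 121 and 122 CPM, and the 5 neutrophil markers to 0.465 and 4.96 CPM.

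Members made up 3.03% (2.71 to 3.38) of kept cells in GFPhi and 4.19% (3.84 to 4.56) in GFPlo. Among kept cells with fewer than 30 C1q UMIs per 10000, which leaves out most cells of GFPhi, the shares were 12.4% (11.1 to 13.7) of 2483 cells in GFPhi and 4.21% (3.86 to 4.58) of 11904 cells in GFPlo, a ratio of 2.94 (2.54 to 3.39). The order of the libraries thus turned with the denominator. Within the non-cycling mesothelial cells, members were 70.4% (65.9 to 74.7) in GFPhi and 38.6% (35.9 to 41.3) in GFPlo, a ratio of 1.83 (1.58 to 2.11). Pnoc Enpp2 Wnt4 cells were 18.1% of the same cells in GFPhi and 44.2% in GFPlo, 2.44-fold lower (1.92 to 3.13). The libraries were sorted apart on GFP and the rule bars cells with much C1q, and the part of both in these shares was not tested. In an alternative chosen after seeing the data, cells were thinned to 5000 UMIs before the rule was applied. Cells with fewer UMIs were dropped, which left 7035 kept cells in GFPhi and 8394 in GFPlo. Of these, 284 and 467 met the rule, and 265 and 410 of those were members without thinning. The 284 and 467 cells were 67.3% and 40.2% of the non-cycling mesothelial cells, close to the shares at full depth.

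**Figure D1:**
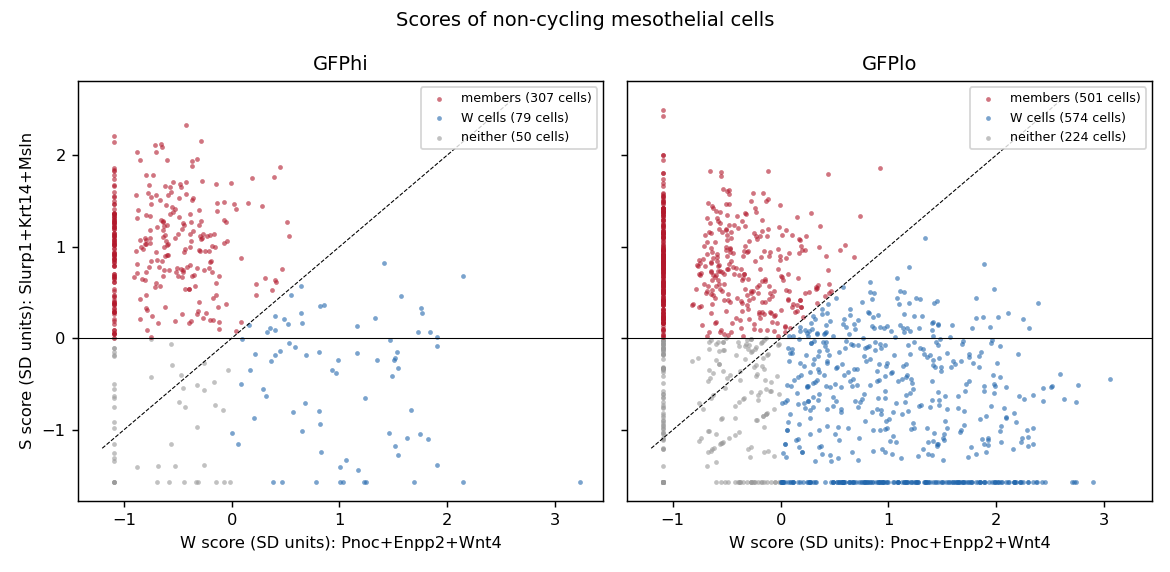
S score (Slurp1, Krt14, Msln) on the vertical axis against W score (Pnoc, Enpp2, Wnt4) for each non-cycling mesothelial cell, GFPhi in the left panel and GFPlo in the right. Each point is a cell, members are red, Pnoc Enpp2 Wnt4 cells blue and the others grey, and the lines mark S equal to W and S equal to 0. Red points are 307 of 436 cells in GFPhi and 501 of 1299 in GFPlo, and the cloud continues across both lines.

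The members are a range of a score and not a bounded class. The 20 cells just inside the threshold of S had 6.09 to 6.79 UMIs of Slurp1, Krt14 and Msln together per 10000, and the 20 just outside had 5.69 to 6.07. Within 0.25 of a threshold lay 29 members of GFPhi (9.45%) and 78 of GFPlo (15.6%), besides 49 and 225 mesothelial cells that were not members. The median S was 1.02 in GFPhi and 0.772 in GFPlo, with interquartile ranges of 0.659 to 1.34 and 0.452 to 1.11.

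Of the 3 genes of the score, Msln was detected in the most members and Slurp1 in the fewest. Msln was detected in every GFPhi member and in all but 1 GFPlo member. Slurp1, Krt14 and Msln were all detected in 130 GFPhi and 134 GFPlo members, Krt14 and Msln without Slurp1 in 112 and 176, Slurp1 and Msln without Krt14 in 21 and 53, and Msln alone in 44 and 137. Slurp1 had a UMI in 49.2% of GFPhi and 37.3% of GFPlo members, and in 18.3% and 12.8% once each cell was thinned to 1000 UMIs. Krt14 had a UMI in 78.8% of GFPhi and 62.1% of GFPlo members, and in 20.6% and 21.2% after thinning, where the exact 95% intervals overlapped. The median Slurp1 level per cell was 0 in both libraries, the 95th percentile was 25.5 UMIs per 10000 in GFPhi and 10.7 in GFPlo, and 5 cells held 23.1% and 27.1% of all Slurp1 UMIs of members. Fibroblast-marker cells, which should lack the gene, had a Slurp1 UMI in 1.08% of cells in GFPhi, at a median of 14471 UMIs, and in 0.710% in GFPlo, at 7962 UMIs. For Krt14 these shares were 0.645% and 0.438%.

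Across quartiles of S within each library the members changed along a gradient, which the score fixes for its own 3 genes. Slurp1 stood at 23.3, 64.1, 198 and 1355 CPM from the lowest to the highest quartile in GFPhi and at 33.8, 57.9, 90.8 and 681 CPM in GFPlo. Krt14 ran over 85.0, 267, 337 and 685 CPM in GFPhi and 79.3, 206, 280 and 687 CPM in GFPlo. Genes outside the score moved along it as well. Cst9, a member of the cystatin family of protease inhibitors, stood at 18.0, 39.2, 176 and 359 CPM in GFPhi and at 12.9, 25.1, 89.7 and 183 CPM in GFPlo. Slc23a3, of the family of ascorbate and nucleobase transporters, stood at 7.29, 37.0, 87.8 and 110 CPM in GFPhi and at 15.8, 21.0, 45.7 and 102 CPM in GFPlo. Csrp2, a LIM protein that binds the actin cytoskeleton in smooth muscle, went the other way, with 1083, 547, 280 and 136 CPM in GFPhi and 1281, 947, 554 and 361 CPM in GFPlo. Unc45b, a chaperone of muscle myosin, stood at 47.1, 51.7, 57.5 and 53.6 CPM across the quartiles of GFPhi and at 25.3, 25.1, 30.6 and 56.1 CPM across those of GFPlo.

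The first comparison set members beside Pnoc Enpp2 Wnt4 cells, to show which further genes go with Krt14 and Slurp1. A gene was called when it differed at least 2-fold, with its interval past 1, in both libraries and in the same direction, among genes with at least 10 CPM on a side. In this sense 319 of 8710 genes were higher in members (3.66%) and 242 were lower (2.78%). The choice of cells used this contrast, so the counts are a description. Krt14 itself had 344 CPM in members and 7.36 CPM in Pnoc Enpp2 Wnt4 cells of GFPhi, and 315 against 11.7 CPM in GFPlo. Slurp1 had 407 against 24.9 CPM in GFPhi and 217 against 4.2 CPM in GFPlo. Msln had 2209 against 403 CPM in GFPhi and 1622 against 245 CPM in GFPlo. In mm10 the 3 genes lie on 3 chromosomes: Slurp1 (ENSMUSG00000022596) on the minus strand of chr15:74724318-74728034, Krt14 (ENSMUSG00000045545) on the minus strand of chr11:100203162-100207548 and Msln (ENSMUSG00000063011) on the minus strand of chr17:25748613-25754378.

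The 3 leading genes that no score used were Myl7, Slc23a3 and Cst9. Myl7, the atrial myosin light chain, had 378 CPM in members and 19.2 CPM in Pnoc Enpp2 Wnt4 cells of GFPhi, 19.6-fold higher (14.7 to 26.8). In GFPlo it had 245 against 16.3 CPM, 15.0-fold higher (12.7 to 18.0). Other cardiomyocyte genes were not with it: Myh6, the main cardiac myosin heavy chain, had 0.232 CPM in GFPhi members and no UMI in GFPlo members, and Tnnt2, cardiac troponin T, had 0.697 and 1.61 CPM. Of the 9 cardiomyocyte markers, 6 were under 1 CPM in GFPhi members and 7 in GFPlo members. Slc23a3 had 60.8 against 2.45 CPM in GFPhi, 24.8-fold (11.3 to 67.8), and 46.1 against 1.87 CPM in GFPlo, 24.7-fold (15.0 to 43.7). Cst9 had 148 against 9.41 CPM in GFPhi, 15.7-fold (10.4 to 24.8), and 78.0 against 1.63 CPM in GFPlo, 47.8-fold (28.3 to 88.0). The Pnoc Enpp2 Wnt4 levels of these genes rest on few UMIs, 6 to 23 for Slc23a3 and Cst9, which the wide intervals show. With possible doublets left out, the ratios in GFPhi and GFPlo were 9.27 and 19.0 for Myl7, 22.0 and 27.0 for Slc23a3 and 9.83 and 69.6 for Cst9.

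The 250 bases before the start of each of these 3 genes are printed because they led the genes that no score used. The search was planned for Slurp1, Krt14 and Msln, but Slurp1 and Msln had no matching window and that of Krt14 starts inside the gene. They come from RefSeq on GRCm38.p6, written 5′ to 3′ on the strand of the gene, and capitals mark a match to a searched motif.
Myl7, minus strand of chr11:5898783-5899032: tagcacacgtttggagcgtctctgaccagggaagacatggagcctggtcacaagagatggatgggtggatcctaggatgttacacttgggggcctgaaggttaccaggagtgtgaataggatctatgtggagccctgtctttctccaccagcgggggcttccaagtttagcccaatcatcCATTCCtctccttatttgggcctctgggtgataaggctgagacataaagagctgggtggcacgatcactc
Slc23a3, minus strand of chr1:75133891-75134140: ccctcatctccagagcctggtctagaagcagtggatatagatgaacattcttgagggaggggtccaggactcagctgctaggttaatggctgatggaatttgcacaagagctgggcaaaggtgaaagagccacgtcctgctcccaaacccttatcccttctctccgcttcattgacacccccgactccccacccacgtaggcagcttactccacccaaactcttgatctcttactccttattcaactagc
Cst9, plus strand of chr2:148834897-148835146: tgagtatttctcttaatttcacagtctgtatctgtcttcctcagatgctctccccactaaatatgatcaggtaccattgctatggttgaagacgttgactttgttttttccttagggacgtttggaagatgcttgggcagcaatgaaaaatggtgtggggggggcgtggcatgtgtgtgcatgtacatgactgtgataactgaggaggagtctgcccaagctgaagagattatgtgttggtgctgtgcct
Both strands were searched for the TEAD motif CATTCC, the AP-1 motif TGANTCA and the WT1-type motif GCGTGGG. The TEAD letters were in 1 of the 3 windows, that of Myl7, with its first base at -70 from the start, and they occur in 12.6% of the 32851 RefSeq windows of this length. The AP-1 letters, in 6.75% of all windows, and the WT1-type letters, in 4.30%, were in none of the 3, so no motifs overlapped.

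Hpgd and Slco2a1, 2 genes of prostaglandin handling, were higher in members. Hpgd, which inactivates prostaglandins, had 665 CPM in members and 55.2 CPM in Pnoc Enpp2 Wnt4 cells of GFPhi, and 454 against 54.0 CPM in GFPlo, 12.0-fold and 8.41-fold higher, or 6.20-fold and 7.68-fold with possible doublets left out. Slco2a1, which carries prostaglandins into cells, had 145 against 20.9 CPM in GFPhi and 109 against 17.6 CPM in GFPlo. Ptges, which makes prostaglandin E, was lower, with 9.41 against 37.6 CPM in GFPhi and 8.85 against 34.6 CPM in GFPlo, 4.0-fold and 3.91-fold. The 3 were put side by side after their values were seen and are no fixed list.

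Some keratins and junction genes were higher in members. Over all 8710 measured genes 3.66% were higher and 2.78% lower, and the list counts below stand beside these shares. Of 6 measured keratins, Krt7 and Krt18 were higher, as were Krt14 of the S score and Krt8, a marker of the rule, whose values the choice used, and none was lower. Krt7, a simple epithelial keratin, had 402 against 63.4 CPM in GFPhi and 338 against 42.6 CPM in GFPlo. Krt18 had 482 against 115 CPM in GFPhi and 348 against 64.5 CPM in GFPlo. Krt19, another simple keratin, was below the 2-fold threshold, at ratios of 1.93 and 1.95. Of 20 measured junction genes, 5 were higher (Cgn, Dsg2, Pkp2, Pkp3 and Crb3), and Cdh2, the cadherin of mesenchymal and muscle cells, was the 1 that was lower, with 9.53 against 36.0 CPM in GFPhi and 13.3 against 52.2 CPM in GFPlo. Pkp2, a desmosome plaque protein, had 16.4 against 1.64 CPM in GFPhi and 13.7 against 3.03 CPM in GFPlo. Of 10 measured genes of stratified epithelium, Sfn, Perp, Itga6 and Klf5 were higher and Krtdap lower.

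Many mesothelial genes were higher in members, beside 3.66% of all measured genes higher and 2.78% lower. Of 23 measured mesothelial genes beyond the rule, 13 were higher and 1, Podxl, was lower, with median ratios of 2.35 in GFPhi and 2.12 in GFPlo beside 1.02 and 0.974 over all measured genes. Efemp1, which encodes the matrix protein fibulin 3, had 712 against 101 CPM in GFPhi and 516 against 82.7 CPM in GFPlo. Prg4, which encodes the lubricant lubricin, had 737 against 242 CPM in GFPhi and 620.4 against 193 CPM in GFPlo. Podxl, a sialomucin of the apical glycocalyx, had 7.67 against 59.7 CPM in GFPhi and 12.1 against 56.4 CPM in GFPlo. Of 10 measured lubricant, mucin and hyaluronan genes, 2 (Prg4 and Muc16) were higher and Podxl was lower.

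Some genes of host defence were also higher in members, where 3.66% of all measured genes were higher and 2.78% lower. Of 24 measured complement, acute phase and antimicrobial genes, 6 were higher in members and 1, Ptges, was lower. Hp, the haemoglobin-binding haptoglobin, had 107 against 17.2 CPM in GFPhi and 126 against 20.1 CPM in GFPlo. Slpi, an antiprotease of mucosal surfaces, had 1214 against 571 CPM in GFPhi and 1076 against 489 CPM in GFPlo. Bst1, the surface enzyme CD157, had 205 against 11.9 CPM in GFPhi and 96.8 against 8.63 CPM in GFPlo. Of 20 measured interferon genes and 10 measured chemokines, none was higher, and Cxcl12 alone was lower, with 2.90 against 26.6 CPM in GFPhi and 8.98 against 47.1 CPM in GFPlo.

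Growth factors were called in both directions, beside 3.66% higher and 2.78% lower over all measured genes. Of 37 measured growth factors and modulators, 4 were higher in members (Fgf9, Rspo1, Areg and Csf1) and 8 were lower, among them Igf1, Fgf1, Il34, Mdk and Wnt4, which the W score fixes as lower. Csf1 and Il34 encode the 2 ligands of the macrophage receptor Csf1r, and they went opposite ways. Csf1 had 152 against 32.3 CPM in GFPhi and 108 against 37.4 CPM in GFPlo. Il34 had 6.04 against 13.5 CPM in GFPhi and 7.37 against 25.3 CPM in GFPlo. Fgf1 had 36.0 against 148 CPM in GFPhi and 47.7 against 152 CPM in GFPlo. Of 11 measured Wnt and Notch genes, the Wnt targets Axin2, Nkd1 and Lgr5 were lower and none was higher, and Nkd1, an inhibitor of Wnt signalling, had 13.6 against 46.6 CPM in GFPhi and 17.8 against 70.0 CPM in GFPlo. Of 14 measured retinoid genes, Crabp2, which binds retinoic acid, was higher along with Rarres2, and Rdh10, which starts retinoic acid synthesis, was lower along with Rarb.

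Several mesenchymal genes were lower in members, beside 2.78% of all measured genes lower and 3.66% higher. Of 23 measured epicardial and mesenchymal transition genes, 6 were lower (Snai1, Zeb2, Prrx1, Cdh2, Tagln and Tnc) and 3 were higher, which were Tbx18, Tcf21 and Sema3d. Tbx18, a transcription factor of the embryonic epicardium, had 76.8 against 32.7 CPM in GFPhi and 82.3 against 26.6 CPM in GFPlo. Tnc, a matrix protein of wounds, had 1.86 against 40.5 CPM in GFPhi and 10.2 against 53.7 CPM in GFPlo. Wt1 was called in neither direction, at 206 against 239 CPM in GFPhi and 216 against 261 CPM in GFPlo. Of the W score, whose direction the rule fixes, Enpp2, which encodes autotaxin, the enzyme that makes lysophosphatidic acid, had 4.53 against 272 CPM in GFPhi and 9.92 against 482 CPM in GFPlo. Nppc, the precursor of C-type natriuretic peptide and no part of the score, was 38.9-fold and 10.9-fold lower, at 2.44 against 94.9 CPM in GFPhi and 4.02 against 44.0 CPM in GFPlo. With possible doublets left out, Nppc was 13.5-fold lower in GFPhi and 3.10-fold lower in GFPlo, and Tnc 4.29-fold and 7.10-fold lower. Slc38a4, an amino acid transporter, had 3.49 against 54.8 CPM in GFPhi and 4.82 against 64.6 CPM in GFPlo. Of 33 measured matrix genes, Col4a2 and Lama5, both of basement membranes, were higher and Tnc and Lum lower. Of 19 measured YAP and TEAD targets, Wwc1, Nt5e, Crim1 and Gadd45a were higher and none was lower, and of 9 measured genes of the Ly6 and uPAR family, Ly6e and Lypd8 were higher, as was Slurp1 of the S score, and Ly6c1 was lower. Of 16 measured coagulation genes, Fgl2 was higher and Serpinf1 and Pros1 were lower, and of 17 measured p16 and cell cycle inhibitor genes only Ccnd1, cyclin D1, was called, as higher. Of 17 hypoxia and glycolysis genes only Ndrg1 was called, and none of 22 dissociation stress genes or 8 cell cycle genes was. Single calls in such lists are no result about the list.

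**Figure D2:**
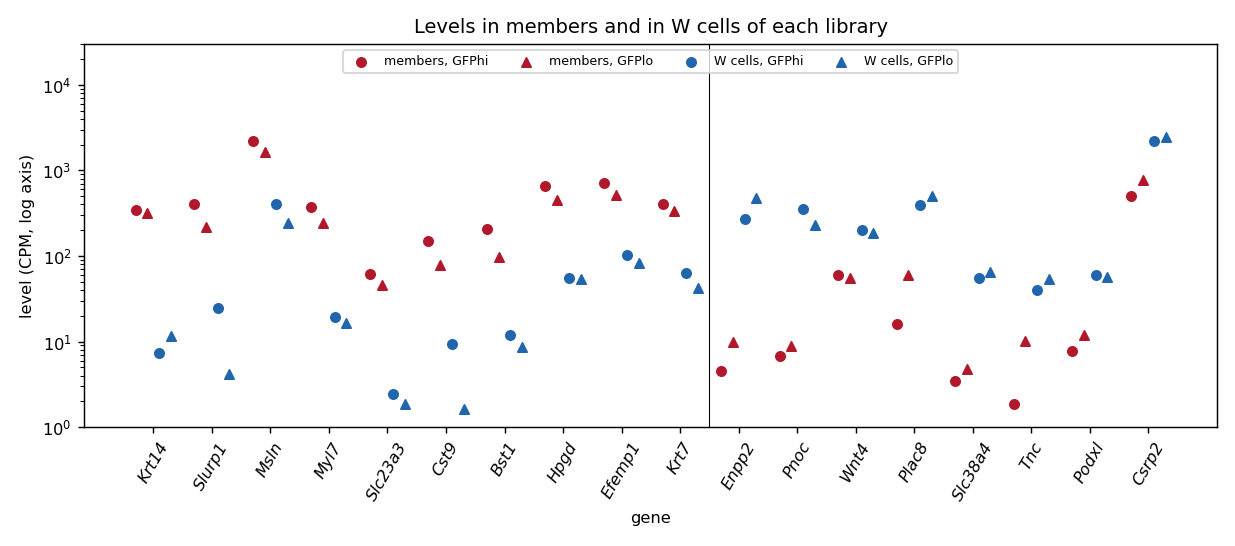
Levels in CPM on a log axis of 10 genes higher in members (Krt14 to Krt7) and 8 genes lower (Enpp2 to Csrp2), in members and in Pnoc Enpp2 Wnt4 cells. Circles are the GFPhi library and triangles the GFPlo library, each a sum over cells. The genes were taken from those called in the same direction in both libraries, so that agreement was fixed by the choice.

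Set against all other kept cells of their library, members had the largest ratios for Slurp1, at 407 against 4.96 CPM in GFPhi and 217 against 2.47 CPM in GFPlo. Clic3, of the chloride intracellular channel family, came next among genes outside the rule, with 137 against 2.49 CPM in GFPhi and 86.2 against 1.47 CPM in GFPlo. Muc16, the membrane mucin CA125, had 418 against 12.4 CPM in GFPhi and 376 against 17.0 CPM in GFPlo. Myl7 was 27.2-fold and 41.4-fold higher in members than in the other cells. Cst9, Plet1, Ckmt1, Cpn1, Slc39a8, Slc23a3, Krt18, Krt7 and Myo5b completed the 15 leading genes with Krt14 and Msln.

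The second comparison, GFPhi against GFPlo within members, asks how members sorted as GFP-high differed from members sorted as GFP-low. The reporter came first. The mGFP feature had 33.1 CPM in GFPhi members and 19.0 CPM in GFPlo members, from 285 and 142 UMIs, a ratio of 1.74 (1.42 to 2.14). It had a UMI in 46.9% and 20.8% of members, and in 2.94% and 0.798% when thinned to 1000 UMIs per cell. Over bands of S (0 to 0.5, 0.5 to 1, 1 to 1.5 and above 1.5) the mGFP ratio was 1.11, 1.68, 2.08 and 1.40. The interval held 1 in the lowest band (0.654 to 1.88) and in the highest (0.766 to 2.78). C1q-high cells of GFPhi had 30.3 CPM, and the labels do not say which stretch of the reporter this feature counts. Pnoc Enpp2 Wnt4 cells had 17.2 CPM in GFPhi and 13.2 CPM in GFPlo, a ratio of 1.30 (0.892 to 1.87).

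Cdkn2a, the p16 locus whose activity the Cre reports, was close to undetected in members. It had 6 UMIs in GFPhi members and 17 in GFPlo members, 0.697 and 2.28 CPM, a level 3.27-fold lower in GFPhi (1.23 to 10.1). A ratio of 3.49 over the 16 GFPhi and 498 GFPlo members without a C1q UMI rests on no more than those 6 GFPhi UMIs. It has no interval and gives no direction. Those 16 cells had a median of 17419 UMIs, against 27586 over all GFPhi members. Within each band of S (0 to 0.5, 0.5 to 1, 1 to 1.5 and above 1.5) the interval was too wide to give a direction. Counts of transcript 3′ ends do not separate p16Ink4a from p19Arf, which share the last exons of the locus. Cdkn2b, the neighbouring inhibitor p15, had 12.4 CPM in GFPhi and 12.3 CPM in GFPlo, a ratio of 1.01 (0.756 to 1.35). CreERT2 had no UMI in members of either library, which allows up to 3.

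Among genes with at least 10 CPM in a library, 179 of 8123 were at least 1.5-fold higher in GFPhi members with the interval past 1 (2.20%), and 322 were lower (3.96%). Within Pnoc Enpp2 Wnt4 cells the counts were 149 of 8322 higher (1.79%) and 658 lower (7.91%). Both kinds of cell came from the same 2 libraries, so these are not independent comparisons. The median ratio over all measured genes was 0.958 in members.

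Cdkn1a, which encodes the cell cycle inhibitor p21 and is a target of p53, was the leading gene beyond macrophage transcripts. It stood at 686 CPM in GFPhi members and 174 CPM in GFPlo members, 3.93-fold higher (3.70 to 4.18). In mm10 it lies on the plus strand of chr17:29090976-29100727. In Pnoc Enpp2 Wnt4 cells it stood at 265 CPM in GFPhi and 137 CPM in GFPlo, a ratio of 1.94 (1.76 to 2.14), and the difference between the 2 ratios has no test. Many cells carried it: 117 of 307 GFPhi members (38.1%) had at least 5 Cdkn1a UMIs per 10000, against 47 of 501 GFPlo members (9.38%). In Pnoc Enpp2 Wnt4 cells this held for 15 of 79 (19.0%) in GFPhi and 38 of 574 (6.62%) in GFPlo. Within the bands of S the ratio in members was 6.20, 3.39, 2.66 and 4.12, past 1.5 in each band. C1q-high cells of GFPhi held 676 CPM of Cdkn1a, about the level of the members, while C1qb, a macrophage gene, stood at 94.4 CPM in GFPhi members and 5096 CPM in C1q-high cells, 1.85%. In the 16 GFPhi members with no C1q UMI the Cdkn1a ratio was 2.85 against the 498 such GFPlo members.

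**Figure D3:**
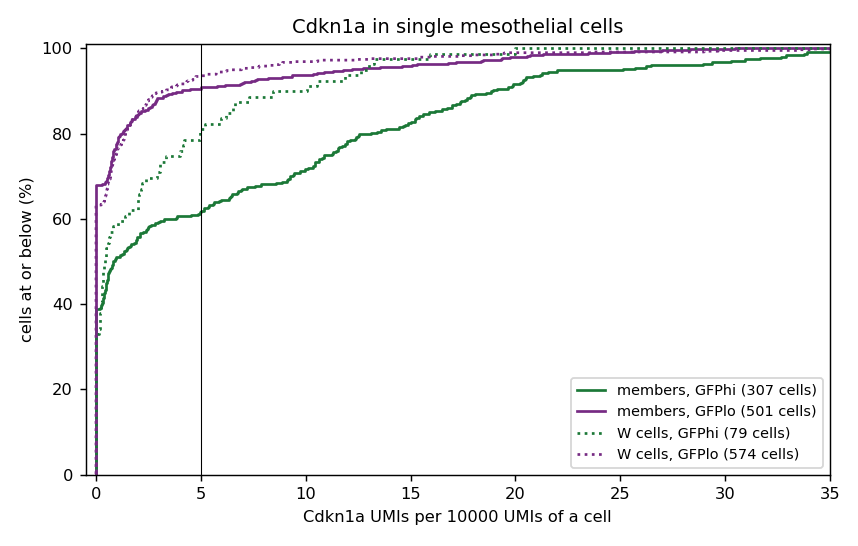
Cumulative percent of cells on the vertical axis by Cdkn1a UMIs per 10000 on the horizontal axis, for members (solid) and Pnoc Enpp2 Wnt4 cells (dotted) of each library. The vertical line marks 5 UMIs per 10000, at or above which lie 38.1% of GFPhi members and 9.38% of GFPlo members.

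Phlda3, Ccng1, Mdm2 and Perp, known as targets of p53, were each past 1.5-fold higher in GFPhi members. They come from different lists and were put side by side after their values were seen. Phlda3, which restrains Akt, had 94.0 CPM in GFPhi and 51.5 CPM in GFPlo members, 1.83-fold (1.62 to 2.07), and a ratio of 0.988 in Pnoc Enpp2 Wnt4 cells. Ccng1, cyclin G1, had 89.7 and 49.3 CPM, 1.82-fold (1.60 to 2.06). Mdm2, the ubiquitin ligase of p53, had 46.8 and 28.8 CPM, 1.62-fold (1.37 to 1.93). Perp, a desmosomal p53 target, had 64.0 and 33.6 CPM, 1.90-fold (1.64 to 2.22). Over all measured genes 2.20% were higher in GFPhi members and 3.96% lower. Of 17 measured genes of the p16 and cell cycle inhibitor list, 5 were higher (Cdkn1a, Mdm2, Trp53inp1, Ccng1 and Gdf15) and 1 was lower. That list was drawn up with earlier results on Cdkn1a known. Gdf15, a stress cytokine, had 20.3 CPM in GFPhi and 1.21 CPM in GFPlo members, with 814 CPM in the C1q-high cells of GFPhi, and their part in it was not tested. Ephx1, an epoxide hydrolase, had 125 CPM in GFPhi and 59.1 CPM in GFPlo members, 2.12-fold (1.89 to 2.37), against 1.14 in Pnoc Enpp2 Wnt4 cells. Over the 16 GFPhi members without a C1q UMI the ratio was 1.02 for Ephx1 and 1.42 for Perp, both under 1.5, 1.64 for Phlda3 and 1.62 for Ccng1.

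Members with much Cdkn1a differed from the rest within each library. The genes of this comparison were chosen after their values were seen, and the cells were split by Cdkn1a itself, at 5 UMIs per 10000. Phlda3 was 6.15-fold higher in the Cdkn1a-high members of GFPhi than in the other members and 5.02-fold higher in those of GFPlo. Ephx1 was 4.48-fold and 5.45-fold higher, Ccng1 3.47-fold and 4.04-fold, and Mdm2 3.25-fold and 2.65-fold, in GFPhi and GFPlo. All 4 were thus higher beside Cdkn1a in both libraries, and so was Stmn2, at 3.09 in GFPhi and 2.28 in GFPlo. Timp1 was at 2.94 in GFPhi and 1.07 in GFPlo, and Lcn2 at 1.78 and 0.600. For the reporter, mGFP had ratios of 1.03 (0.804 to 1.31) in GFPhi and 0.795 (0.388 to 1.47) in GFPlo, where the high members had 11 UMIs. Krt14 was at 1.21 and 1.18, Msln at 1.25 and 1.21, and Slurp1 at 0.731 and 0.638. Lyz2, a macrophage gene, was 1.34-fold higher in the Cdkn1a-high members of GFPhi (1.22 to 1.46) and 7.07-fold higher in those of GFPlo (4.67 to 10.6), at 61.8 against 8.74 CPM, and C1qb was at 1.24 in GFPhi. The part of macrophage transcripts in the split was not tested. The median depth of Cdkn1a-high members was 30034 UMIs against 25690 for the others in GFPhi and 14617 against 14491 in GFPlo.

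**Figure D4:**
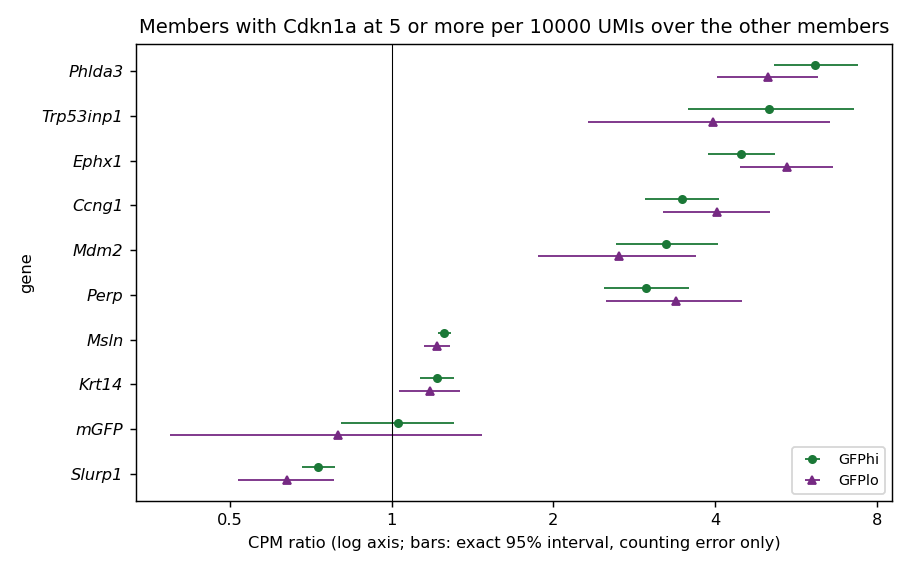
Ratio of CPM in members with at least 5 Cdkn1a UMIs per 10000 over CPM in the other members, on a log axis, for 10 genes in each library with 95% counting intervals. Phlda3, Trp53inp1, Ephx1, Ccng1, Mdm2 and Perp lie above 1 in both libraries, and Msln and Krt14 less far above 1 with intervals past it. The intervals of mGFP hold 1, and Slurp1 lies below 1.

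Other genes higher in GFPhi members included several secreted proteins. Timp1, the metalloproteinase inhibitor, had 3859 CPM in GFPhi and 1981 CPM in GFPlo members, 1.95-fold higher (1.91 to 1.99). In the lowest band of S the ratio was 0.870, 5 cells held 25.2% of its UMIs in GFPhi, and it was 0.698 over the 16 GFPhi members without a C1q UMI. Gpx3, a secreted glutathione peroxidase, had 564 and 285 CPM, 1.98-fold (1.88 to 2.09). Lcn2, the iron-withholding lipocalin, had 110.2 and 45.0 CPM, 2.45-fold (2.16 to 2.78), and Stmn2, a microtubule-binding stathmin best known from neurons, 126 and 42.1 CPM, 3.0-fold (2.65 to 3.42). Both were below 1, at 0.266 and 0.381, over the 16 GFPhi members without a C1q UMI. Bst1 had 205 and 96.8 CPM, 2.12-fold (1.94 to 2.31). Cox6b2, a subunit isoform of cytochrome oxidase, had 125 and 61.7 CPM in members, 2.02-fold, and 1.94-fold in Pnoc Enpp2 Wnt4 cells. Over the 16 GFPhi members without a C1q UMI the ratio was 1.61 for Gpx3, 1.85 for Bst1 and 1.68 for Cox6b2. Of 23 measured complement, acute phase and antimicrobial genes, 4 were higher (C3, Lcn2, Wfdc2 and Cd14) and Il6 was lower, beside 2.20% and 3.96% of all measured genes. C3 had 4147 CPM in GFPhi members and 2761 CPM in GFPlo members. Cd14, a receptor of myeloid cells, stood at 37.6 CPM in GFPhi members and 1159 CPM in C1q-high cells. Rarres1, at 60.2 against 19.6 CPM, rested on 5 cells with 92.5% of its UMIs in GFPhi and 82.9% in GFPlo.

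Slurp1 was 1.88-fold higher in GFPhi members over all cells (1.77 to 2.00). Members were chosen in part on Slurp1, so this describes the cells that the rule took from each library. The ratio was 0.533 over the 16 GFPhi members without a C1q UMI. Within the bands of S the Slurp1 ratio was 0.603, 0.771, 0.912 and 0.875, below 1 in each, with an interval that held 1 in the third. Slurp1 is itself part of S, so a band of S limits how far its level can differ. The bands therefore cannot decide whether the pooled ratio holds. GFPhi held 50 of its 307 members in the highest band of S, against 29 of 501 in GFPlo. Krt14 had ratios of 0.697, 1.03, 0.572 and 1.02 over the bands. Krt14 had 344 CPM in GFPhi and 315 CPM in GFPlo members, a ratio of 1.09 (1.04 to 1.15), and Msln 2209 and 1622 CPM, a ratio of 1.36 (1.33 to 1.39), neither past 1.5.

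Macrophage transcripts led the list of genes higher in GFPhi members, and they were at a small share of their level in C1q-high cells. C1qa had 571 UMIs in GFPhi members and 0 in GFPlo members. Lyz2, macrophage lysozyme, had 224 CPM in GFPhi members and 13.8 CPM in GFPlo members, while C1q-high cells of GFPhi had 11793 CPM, so members stood at 1.90% of that level. C1qa stood at 1.67%. Pnoc Enpp2 Wnt4 cells of GFPhi had the like level, 224 CPM of Lyz2 and 63.4 CPM of C1qa. C1q-high cells were 7642 of the kept cells in GFPhi and 55 in GFPlo, and their part in these counts was not tested.

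Some matrix genes were lower in GFPhi members and the others were not called, beside 3.96% of all measured genes lower and 2.20% higher. Of 33 measured matrix genes, 14 were lower and none was higher, with a median ratio of 0.771 beside 0.958 over all genes. Of 21 measured epicardial and mesenchymal transition genes, 8 were lower (Zeb1, Zeb2, Prrx1, Fn1, Postn, Acta2, Tagln and Tnc) and none was higher, with a median of 0.718. Fn1, fibronectin, had 492 CPM in GFPhi and 829 CPM in GFPlo members, 1.69-fold lower (1.62 to 1.75), against a ratio of 0.909 in Pnoc Enpp2 Wnt4 cells. Eln, elastin, had 295 and 626 CPM, 2.12-fold lower (2.02 to 2.23). Postn, periostin, had 4.76 and 107 CPM, 22.4-fold lower (16.3 to 31.4), and Tagln, a smooth muscle actin-binding protein, 26.7 and 88.6 CPM, 3.32-fold lower (2.85 to 3.87), or 9.47-fold among members with Krt14 and Slurp1 both detected.

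Fibroblast-marker cells expressed many of these genes. GFPlo members stood at 4.53% of the level of fibroblast-marker cells for Postn, at 4.84% for Lum, a matrix proteoglycan, at 3.51% for Col8a1 and at 4.18% for Cthrc1, a collagen-repeat protein of activated fibroblasts. Dcn was at 73.0% and Col1a1 at 36.7%. With possible doublets left out, Postn was 6.96-fold lower in GFPhi members. Fibroblast-marker cells were 465 of the kept cells in GFPhi and 8445 in GFPlo, and their part in the lower genes was not tested.

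Other lower genes stood above their level in fibroblast-marker cells. Has1, a hyaluronan synthase active in mesothelium, had 197 CPM in GFPhi and 358 CPM in GFPlo members, 1.82-fold lower (1.71 to 1.94), and 14.4 CPM in the fibroblast-marker cells of GFPlo. Its ratio was 0.544, 0.558, 0.532 and 0.383 over the bands of S, and in Pnoc Enpp2 Wnt4 cells it was 0.890. Akr1b3, aldose reductase, had 305 and 614 CPM, 2.01-fold lower (1.92 to 2.11). Angptl7, a secreted angiopoietin-like protein, had 242 and 390.1 CPM, 1.61-fold lower (1.52 to 1.70), but 1.19-fold among members with Krt14 and Slurp1 both detected. Nfkb1, a subunit of NF-κB, had 101 and 166 CPM in members, 1.65-fold lower or 1.31-fold with cells thinned to 5000 UMIs, and a ratio of 0.592 in Pnoc Enpp2 Wnt4 cells. Over the 16 GFPhi members without a C1q UMI the ratios were 0.719 for Akr1b3, 0.828 for Angptl7 and 0.745 for Nfkb1, none past 1.5-fold. Igfbp3, which binds insulin-like growth factors, had 101 and 157 CPM, 1.56-fold lower. Over the same 16 GFPhi members its ratio was 0.435 and that of Has1 was 0.583, both past 1.5-fold. Cxcl13, the chemokine of B cell follicles, had 19 UMIs in GFPhi and 522 in GFPlo members, 505 of them in 1 cell.

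**Figure D5:**
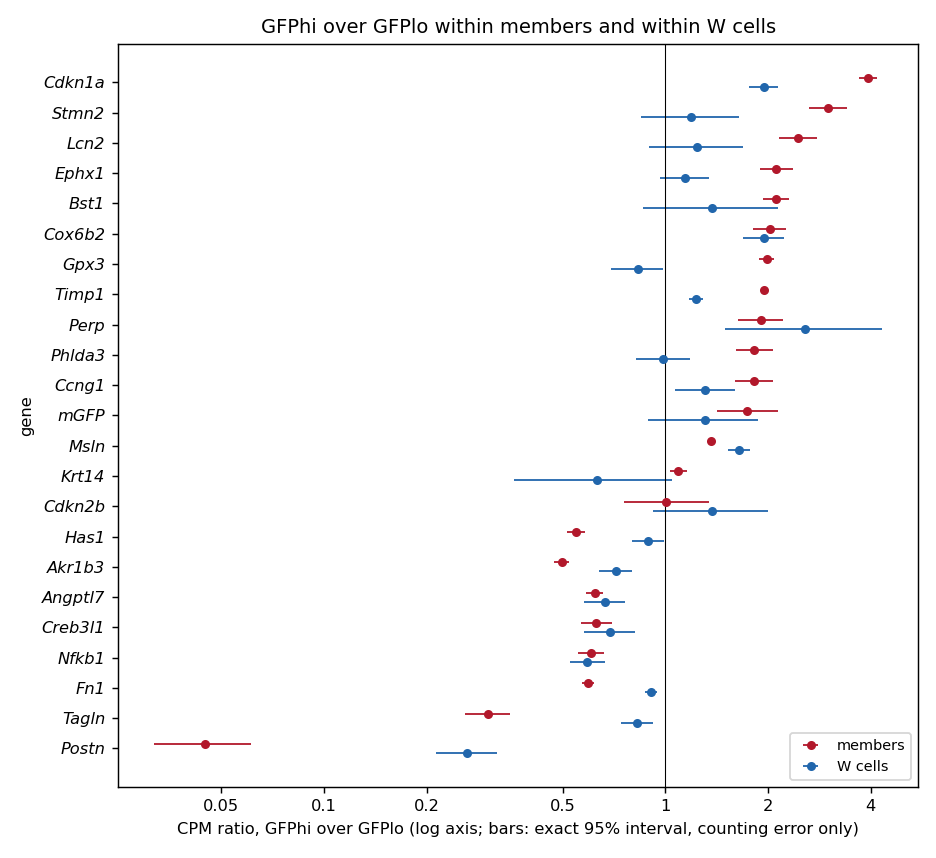
Ratio of CPM in GFPhi over GFPlo on a log axis with 95% counting intervals, for 23 genes from Cdkn1a to Postn, in members and in Pnoc Enpp2 Wnt4 cells. In members Cdkn1a lies at 3.93 and Has1 at 0.549, against 1.94 and 0.890 in Pnoc Enpp2 Wnt4 cells.

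In the remaining gene lists most genes were not called between the libraries. Over all 8123 measured genes 2.20% were higher in GFPhi members and 3.96% lower. The few calls per list stand beside these shares and are no result about a list. Of 33 measured growth factors and modulators, Gdf15 and Igfbp6 were higher in GFPhi members and 8 were lower, among them Igf1, at 57.9 CPM in GFPhi and 120.4 CPM in GFPlo. Igfbp6, a binding protein with preference for Igf2, had 2374 CPM in GFPhi and 1562 CPM in GFPlo. Of 14 measured coagulation and fibrinolysis genes, none was higher and 4 were lower, among them Plaur, the urokinase receptor, and Serpinf1. Of 8 measured chemokines, Cxcl5 and Cxcl13 were lower, Cxcl13 mainly through 1 GFPlo cell. For Cxcl5 the ratio was 0.128, 0.399, 6.10 and 0.561 over the bands of S, so its direction differed between them. Of 13 measured retinoid genes, Aldh1a3, Rarres1 and Rarres2 were higher, and of 19 YAP and TEAD targets Nt5e was higher and Ccn2 and Igfbp3 lower. None of 19 interferon genes, 17 hypoxia and glycolysis genes or 6 keratins was called, and of 22 dissociation stress genes only Hspa1b, a heat shock protein, was higher. Of 19 measured junction genes, Dsg2 and Crb3 were higher, of 10 lubricant, mucin and hyaluronan genes Podxl, Has1 and Emp1 were lower, and of 8 cell cycle genes Mcm6 was lower. Of 8 measured Wnt and Notch genes, Fzd1 was lower. Of 8 measured Ly6 and uPAR genes, Ly6c1 and Plaur were lower, and Slurp1 was higher over all members. Within the bands of S, a score that Slurp1 is part of, its ratio was below 1. Of 9 measured genes of stratified epithelium, Perp and Itgb4 were higher, and of 23 mesothelial genes beyond the rule, C3 was higher and Podxl lower.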

How the data were processed

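The authors deposited raw UMI counts per gene and cell barcode for each of the 2 libraries, as whole numbers, and the deposited counts were used as they stood. Per the labels' protocols, the kit was a SeekOne droplet kit for 3′ ends, whereas the description field has 10x Genomics. Per the submitters' processing notes the build was mm10. Neither the aligner nor the counting program nor the calling of cells is stated there. Of 32287 features, mGFP and CreERT2 are not mouse genes, and 32235 of 32285 identifiers matched GENCODE vM21, the source of gene positions.

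UMIs were summed over cells and scaled to CPM. Intervals are exact and at 95%: conditional ones for ratios, Clopper-Pearson ones for shares. With 1 library per group there was no test. The calls were tried on simulated counts with planted changes and counting error alone. That trial cannot cover differences between cells or libraries, or transcripts from other cells. Members, gene lists and tests were chosen with earlier results of these data known. Genes were named by rule: those of the scores, markers and reporter, the 25 largest ratios in each direction against Pnoc Enpp2 Wnt4 cells, the 15 largest against other cells and the 15 largest between libraries, the last also among genes at or above their level in C1q-high or fibroblast-marker cells, all with at least 50 CPM and 20 UMIs, and members of the lists. The text gives part of them, and some genes that the rule or the lists hold are not reported here. Alternatives covered the rule's thresholds, possible doublets, depth, scaling and minimum level. Promoter windows were looked up in RefSeq for Slurp1, Krt14, Msln, Myl7, Slc23a3 and Cst9, and 4 matched, of which that of Krt14 starts inside the gene and is not shown. Python 3.11.15, numpy 2.4.6, scipy 1.17.1, pandas 2.3.3 and matplotlib 3.10.9 were used.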

Additional observations from a re-analysis of the deposited data

Results flagged for a closer look

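Gpx3, which encodes a secreted glutathione peroxidase, differed in direction between the 2 kinds of mesothelial cell. Within members it was 1.98-fold (1.88 to 2.09) higher in GFPhi than in GFPlo, at 564 against 285 CPM. Within Pnoc Enpp2 Wnt4 cells the ratio was 0.829 (0.694 to 0.986), at 65.9 against 79.4 CPM. The difference between the 2 ratios was not tested, since each rests on 1 library per fraction. Over the bands of S the ratio in members was 3.11, 1.53, 1.51 and 1.47, above 1 in each, and over the alternatives other than members without a C1q UMI it ran over 1.73 to 2.07.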

How the results depend on the processing

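Requiring 4 of 8 markers, C1q under 10 per 10000, or median-of-ratios scaling moved no share past its interval and no count of called genes past 1.5 times, where each was run. With equal weight for every cell, 231 genes were higher and 330 lower in GFPhi than in GFPlo members. Those calls used the fold alone, without an interval, so the counts are not under the same rule. With S above 0.5, members were 2.47% of kept cells in GFPhi and 2.99% in GFPlo, and 57.3% and 27.5% of non-cycling mesothelial cells. With at least 2000 UMIs they were 3.46% and 4.83% of kept cells. Without possible doublets, 209 and 298 cells met the rule, 2.06% and 2.49% of kept cells and 75.2% of the mesothelial cells of GFPhi; Cxcl13 (GFPhi over GFPlo 1.15), Apela (0.987) and Gatm (members over Pnoc Enpp2 Wnt4 cells of GFPhi 1.11) turned round. With at least 50 CPM, 149 genes were higher and 91 lower in members than in Pnoc Enpp2 Wnt4 cells, and 54 higher and 68 lower in GFPhi than in GFPlo members, since fewer genes were tested; with no minimum, 448 and 861 differed between GFPhi and GFPlo members.

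The other settings were chosen after seeing the data. Thinned to 5000 UMIs, with cells of fewer UMIs dropped, members were 4.04% and 5.56% of the 7035 and 8394 cells that were left. In this setting 190 genes were higher and 145 lower against Pnoc Enpp2 Wnt4 cells, Cdkn2a had a ratio of 0, mGFP of 2.37 and Apela of 0.995. Among members with Krt14 and Slurp1 both detected, 519 genes were lower, and Rarres1 (0.583) and Cldn10 (1.13) turned round. Members without a C1q UMI were 16 in GFPhi and 498 in GFPlo. Their median depth was 17419 and 14480 UMIs, against 27586 and 14507 over all members. Ratios over these cells are given without intervals. In this setting 324 genes were higher, and Cdkn2a was at 3.49 on too few UMIs to give a direction. Slurp1 (0.533), Stmn2 (0.381), Rarres1 (0.614), Lcn2 (0.266), Timp1 (0.698), Apela (0.727), Fkbp4 (1.19) and Cldn10 (1.49) turned round. The cause was not tested. Thinned to 1000 UMIs, a planned setting, Slurp1 had a UMI in 18.3% and 12.8% of GFPhi and GFPlo members, Krt14 in 20.6% and 21.2%, Msln in 85.3% and 75.8% and Cdkn1a in 29.7% and 12.0%. The ratio of Cdkn1a ran over 3.44 to 4.87 and that of Has1 over 0.514 to 0.596 in the alternatives other than members without a C1q UMI. No paired analysis was possible because each fraction had 1 library. With 1 library per fraction, what differs between the libraries and what differs between the fractions cannot be told apart.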
